A study of Mus musculus with 3 samples.

Results

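Cckar, Cd24a, Plpp3, Epdr1, Ly6a and Krtap17-1 are 6 genes, of 32287 features in the deposited count tables, that were chosen by their UMIs in alveolar type 2 (AT2) cells, more of them in cells of club cell origin than in cells of AT2 origin. They were followed here in raw UMIs (unique molecular identifiers, each standing for 1 captured RNA molecule) across cell classes and lineage labels. The cells came from lungs of Scgb1a1-CreER;Sftpc-DreER;R26-TLR mice that had received bleomycin, a drug that injures the lung epithelium, 4 weeks earlier. All 3 sorted populations therefore shared the genotype, the injury and the time. Club-Tracer cells were sorted as tdTomato-positive, BASC-Tracer cells as positive for both tdTomato and ZsGreen, and AT2-Tracer cells as ZsGreen-positive. BASC stands for bronchioalveolar stem cell, an airway cell at the bronchioalveolar junction that makes both Scgb1a1 and Sftpc. CreER was driven by Scgb1a1, the club cell secretoglobin gene, and DreER by Sftpc, the surfactant protein C gene, so each label records promoter activity when the recombinase was active and not the present state of a cell. Each label was 1 droplet library, with the number of animals in it not given in the sources used here. With 1 library per label there is no replicate check, no test and no p-value, and every difference below is between these libraries. An AT2 cell was a barcode with Sftpc at 4% or more of its UMIs, 5000 or more UMIs and at most 15% mitochondrial UMIs, which gave 349 of 5304 Club-Tracer barcodes, 258 of 2439 BASC-Tracer barcodes and 1395 of 8884 AT2-Tracer barcodes, 2002 of 16627 in all.

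AT2 cells secrete surfactant and act as stem cells of the alveolus, and after severe injury club cells and BASCs can also give rise to them. AT2 cells can pass through a Krt8-high transitional state on the way to flat alveolar type 1 (AT1) cells, which form the gas exchange surface. The 6 genes have no shared pathway. Cckar encodes the cholecystokinin A receptor, a Gq-coupled receptor best known from pancreas, gallbladder and vagal neurons. Cd24a encodes the heat-stable antigen CD24, a small GPI-anchored surface glycoprotein used to sort lung epithelium. Ly6a encodes Sca-1, a GPI-anchored protein used as a sort antigen for BASCs and haematopoietic stem cells. Plpp3 encodes a lipid phosphate phosphatase that dephosphorylates lysophosphatidic acid and related lipids at the cell surface. Epdr1 encodes an ependymin-related secreted and lysosomal glycoprotein. Krtap17-1 encodes a keratin-associated protein known from the hair shaft.

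All 6 genes are protein coding, and in the GENCODE M21 annotation of GRCm38 none of them overlaps another gene. Cckar (ENSMUSG00000029193) lies on the minus strand at chr5:53697776-53707705, and Cd24a (ENSMUSG00000047139) on the plus strand at chr10:43578284-43584265. Plpp3 (ENSMUSG00000028517) spans chr4:105157347-105232764 on the plus strand, and Epdr1 (ENSMUSG00000002808) spans chr13:19591706-19619927 on the minus strand. Ly6a (ENSMUSG00000075602) lies at chr15:74994877-74998031 on the minus strand inside the Ly6 cluster, with Ly6i and Ly6c1 as its nearest neighbours. Krtap17-1 (ENSMUSG00000078252) is a single exon of 761 bases at chr11:99993234-99993994 on the minus strand, between Krtap16-1 and Krt33a in the keratin cluster.

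Promoter windows are shown for Plpp3, Epdr1 and Krtap17-1, the members with an entry in the RefSeq promoter table of GRCm38.p6. These genes are not neighbours, and their higher level in Club-Tracer AT2 cells is how they were chosen. Each window runs from 250 bases before the start to 50 bases after it, 300 bases on the gene's own strand, at chr4:105157097-105157396 for Plpp3, chr13:19619781-19620080 for Epdr1 and chr11:99993945-99994244 for Krtap17-1. Capitals mark the motif matches.
Plpp3: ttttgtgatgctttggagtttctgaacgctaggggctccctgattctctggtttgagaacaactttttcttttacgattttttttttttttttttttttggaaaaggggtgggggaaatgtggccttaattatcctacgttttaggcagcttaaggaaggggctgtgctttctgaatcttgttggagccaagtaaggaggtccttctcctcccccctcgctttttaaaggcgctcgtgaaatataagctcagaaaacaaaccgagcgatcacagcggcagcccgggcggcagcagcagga
Epdr1: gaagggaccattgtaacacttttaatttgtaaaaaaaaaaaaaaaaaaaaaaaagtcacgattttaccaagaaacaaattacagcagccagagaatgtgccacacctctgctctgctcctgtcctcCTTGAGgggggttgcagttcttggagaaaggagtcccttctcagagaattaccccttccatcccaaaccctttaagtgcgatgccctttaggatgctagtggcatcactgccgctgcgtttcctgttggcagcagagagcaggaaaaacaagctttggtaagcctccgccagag
Krtap17-1: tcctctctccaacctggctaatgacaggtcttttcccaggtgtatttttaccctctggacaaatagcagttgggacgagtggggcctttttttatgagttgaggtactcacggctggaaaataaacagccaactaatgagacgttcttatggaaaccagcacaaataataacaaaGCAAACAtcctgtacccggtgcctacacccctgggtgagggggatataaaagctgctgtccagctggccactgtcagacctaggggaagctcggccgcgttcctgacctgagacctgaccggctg
The capitals in Epdr1 are CTCAAG, an Nkx2-1 motif, read on the other strand at position -124 from the start. That position is counted from the RefSeq start, which for Epdr1 lies inside the GENCODE span given above. The GENCODE span begins, on the minus strand, at base 19619927 within the window, so the position differs between the annotations. The capitals in Krtap17-1 are TGTTTGC, a forkhead motif, also on the other strand, at position -75. Of 32851 promoter windows of this length, 15.9% held CTCAAG and 5.065% held TGTTTGC on either strand, so both matches are common. The other motifs searched on both strands were TCAAGT (Nkx2-1), TGTTTAC (forkhead), TTGCNNAA (C/EBP), the interferon-stimulated response element, TTCNNNGAA (GAS), GGAATG (TEAD) and TGANTCA (AP-1), and none of them was found in the 3 windows. The shares of all promoters that held these were between 3.44% and 14.7%.

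The 9 AT2 marker genes summed to 157337 CPM (the usual scale, relative to all UMIs of the group) in Club-Tracer AT2 cells, 147006 in BASC-Tracer and 150327 in AT2-Tracer AT2 cells. Sftpc, the gene of the gate, made up 92125, 88341 and 99063 CPM of these sums, which thus follow in large part from the gate. Of the other markers, Lamp3 was at 509, 860 and 872 CPM in the same order. Sftpa1 ran the other way, at 26361, 21224 and 18703 CPM. The reporters matched the sort, with tdTomato RNA (tdT) at 1225, 1636 and 0.728 CPM and ZsGreen RNA (ZsGFP) at 42.25, 8904 and 7278 CPM in AT2 cells sorted as Club-Tracer, as BASC-Tracer and as AT2-Tracer. The AT2 cells had a median of 26023, 31808 and 18503 UMIs per cell in the same order, and whole libraries held 62570890, 29013077 and 72256580 UMIs. Markers of club cells moved with the label. The 8 club cell markers summed to 50996 CPM in Club-Tracer AT2 cells, 15195 in BASC-Tracer AT2 cells and 2082 in AT2-Tracer AT2 cells, and the median AT2 cell held 234, 25.5 and 0 UMIs of Scgb1a1. The 6 immune markers summed to 3.20, 10.6 and 66.4 CPM, so immune RNA was highest where the members were lowest. Between 73 and 122 barcodes were shared by each pair of libraries, and none of them was an AT2 cell in both.

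Cckar, the receptor gene, was nearly absent from AT2 cells of AT2 origin. Its 750 UMIs in Club-Tracer AT2 cells amounted to 82.7 CPM (76.9 to 88.9), against 39.1 CPM (35.0 to 43.6, 329 UMIs) in BASC-Tracer AT2 cells and 0.364 CPM (0.175 to 0.670, 10 UMIs) in AT2-Tracer AT2 cells. These and all later intervals are exact 95% intervals that cover counting error only. The Club-Tracer level was 227 times the AT2-Tracer level (123 to 476) and the BASC-Tracer level 107 times (57.7 to 226). A Cckar UMI was found in 59.6% of Club-Tracer AT2 cells, 32.95% of BASC-Tracer AT2 cells and 0.645% of AT2-Tracer AT2 cells, with at most 18, 23 and 2 UMIs in any cell.

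Cd24a and Ly6a, the genes of the GPI-anchored surface proteins, were lowest in the AT2-Tracer library too. Cd24a reached 218.0 CPM (208.5 to 227.8, 1976 UMIs) in Club-Tracer AT2 cells and 85.8 CPM (79.7 to 92.3, 722 UMIs) in BASC-Tracer AT2 cells, against 16.2 CPM (14.7 to 17.8, 445 UMIs) in AT2-Tracer AT2 cells. A Cd24a UMI was found in 69.05%, 40.3% and 10.0% of these cells, so most AT2 cells of the Club-Tracer library held it. Ly6a stood at 678 CPM (661 to 695, 6147 UMIs), 304.7 CPM (293 to 317, 2564 UMIs) and 160 CPM (156 to 165, 4407 UMIs) in the same order. It was the only member detected in most AT2-Tracer AT2 cells: 93.1%, 77.5% and 54.7% of AT2 cells held a UMI, with a median of 11, 4 and 1. The ratio of Club-Tracer over AT2-Tracer was 13.5 for Cd24a (12.1 to 14.95) and 4.23 for Ly6a (4.07 to 4.395). The ratio of BASC-Tracer over AT2-Tracer was 5.30 for Cd24a (4.70 to 5.98) and 1.90 for Ly6a (1.81 to 1.995). Ly6 genes resemble each other in sequence, and the assignment of reads common to Ly6a and its relatives, not given in the sources used here, could shift its counts.

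Plpp3, the membrane phosphatase, and Epdr1, the secreted glycoprotein, differed in how the BASC-Tracer cells stood. Plpp3 was at 52.4 CPM (47.8 to 57.3, 475 UMIs) in Club-Tracer AT2 cells, 18.9 CPM (16.1 to 22.1, 159 UMIs) in BASC-Tracer AT2 cells and 3.13 CPM (2.50 to 3.87, 86 UMIs) in AT2-Tracer AT2 cells. Epdr1 was at 71.4 CPM (66.0 to 77.1, 647 UMIs), 49.9 CPM (45.3 to 54.9, 420 UMIs) and 7.39 CPM (6.41 to 8.48, 203 UMIs) in the same order. Against the AT2-Tracer level, Plpp3 was 16.7 times as high in Club-Tracer (13.3 to 21.3) and 6.04 times in BASC-Tracer AT2 cells (4.61 to 7.94). Epdr1 was 9.66 times as high in Club-Tracer (8.24 to 11.4) and 6.755 times in BASC-Tracer AT2 cells (5.70 to 8.03). For Epdr1 the Club-Tracer cells were only 1.43 times above the BASC-Tracer cells (1.26 to 1.62), while for Plpp3 they were 2.77 times above (2.31 to 3.34).

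Krtap17-1, the hair shaft protein gene, had the smallest difference and a different shape. Club-Tracer AT2 cells held 1047 UMIs or 115.5 CPM (108.6 to 122.7), BASC-Tracer AT2 cells 688 UMIs or 81.8 CPM (75.8 to 88.1), and AT2-Tracer AT2 cells 1205 UMIs or 43.9 CPM (41.4 to 46.4). Most of these molecules sat in few cells. Cells with 10 or more Krtap17-1 UMIs, a count chosen after the values were seen, numbered 35 of 349 in Club-Tracer, 17 of 258 in BASC-Tracer and 31 of 1395 in AT2-Tracer, and they held 85.4%, 85.6% and 75.35% of the gene's UMIs. The median AT2 cell of every library held 0 Krtap17-1 UMIs, while single cells held up to 57, 118 and 106. Cckar behaved otherwise, with 10, 8 and 0 AT2 cells at that count.

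All 6 members were at 50 CPM or more in Club-Tracer or AT2-Tracer AT2 cells, and all 6 were at least 2-fold higher in Club-Tracer. This is how they were chosen, so the count is a description. The size rule, used throughout, was a log2 ratio of CPM with 5 CPM added to both sides of at least 1, for features at 50 CPM or more in either group. A gene that is low in 1 library passes that limit only where it is high, so counts of members that passed are descriptions throughout. The rule was met upward by 63 of 2897 features, or 2.17%, and downward by 102. Scaling by the median ratio instead of the total gave 75 upward and 74 downward. On this scale the members ranked 5 (Cckar, 4.03), 7 (Cd24a, 3.39), 12 (Plpp3, 2.82), 15 (Epdr1, 2.62), 26 (Ly6a, 2.05) and 43 (Krtap17-1, 1.30) from the top. Their median log2 ratio was 2.72, against -0.15 over all features tested.

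BASC-Tracer AT2 cells took intermediate levels for all 6 members. Between BASC-Tracer and AT2-Tracer AT2 cells, 31 of 2957 features or 1.05% were 2-fold higher. Among the 3 members at 50 CPM or more, Cd24a was so (log2 ratio 2.10), while Ly6a (0.90) and Krtap17-1 (0.83) were below 2-fold. The other 3 members were under 50 CPM in both libraries and outside the count, with log2 ratios of 3.04 for Cckar, 2.15 for Epdr1 and 1.56 for Plpp3. The count of 1 lay between 0, at a limit of 100 CPM, and 4, in cells with Lyz1 at 0.1% or more. The features 2-fold higher moved the same way, with fewer at 100 CPM and more in cells with Lyz1 at 0.1% or more, of which BASC-Tracer had 17. This comparison uses the same AT2-Tracer library as the one that chose the genes, so the common low level in that library enters both. Between Club-Tracer and BASC-Tracer AT2 cells, 10 of 2838 features or 0.352% were 2-fold higher and 20 lower, or 16 and 16 with scaling by the median ratio. Of the 6 members tested there, Cd24a (1.30), Plpp3 (1.26) and Ly6a (1.14) were among them, Cckar was close below (0.99), and Epdr1 (0.48) and Krtap17-1 (0.47) were further below. The median of the 6 was 1.07, against -0.12 over all features tested, and the Club-Tracer library took part in choosing the genes.

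Thinning every cell to 5000 UMIs removed the difference in depth from the shares of positive cells. A Cckar UMI was then found in 27.2% (22.6 to 32.2) of Club-Tracer AT2 cells, 12.0% of BASC-Tracer AT2 cells and 0.287% of AT2-Tracer AT2 cells. The shares were 47.9%, 21.3% and 4.80% for Cd24a, 14.6%, 6.59% and 1.58% for Plpp3, and 26.9%, 19.0% and 2.72% for Epdr1. They were 76.5%, 51.2% and 32.8% for Ly6a and 17.2%, 8.92% and 5.52% for Krtap17-1. The order of the libraries was the same for all 6 genes, thinned or not. Immune cells, which come from outside the epithelium, served as the background, with a median of 7514 UMIs per cell in the Club-Tracer library. In the 33 immune cells of the Club-Tracer library with enough UMIs, 0 held a Cckar UMI (upper limit 10.6%), 0 an Epdr1 UMI, and 3.03% a Plpp3 or a Krtap17-1 UMI. Cd24a was found in 54.5% and Ly6a in 21.2% of them, so for these genes immune cells are not an empty background.

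**Figure D1:**
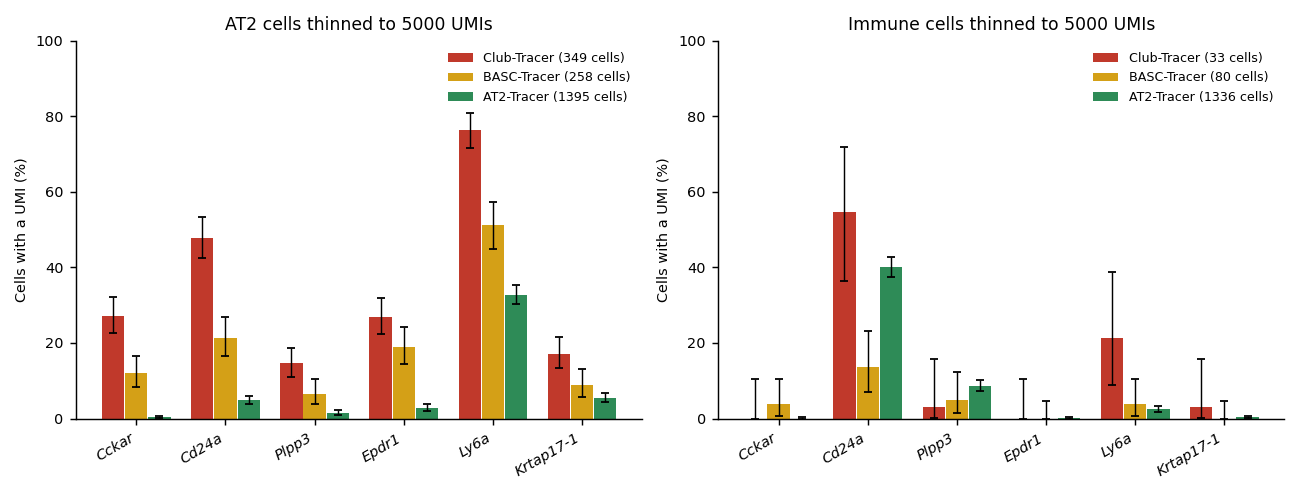
Share of cells with at least 1 UMI of each gene (percent, from 0) after thinning each cell to 5000 UMIs, for each lineage label, in AT2 cells (349, 258 and 1395 cells) and immune cells (33, 80 and 1336 cells). Error bars are exact 95% binomial intervals; in AT2 cells the Club-Tracer bar is the tallest for each of the 6 genes, and for Cckar it is 27.2% beside 0.287% in AT2-Tracer cells.

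Single AT2 cells rarely showed the whole set. In thinned cells, 3 or more of the 6 genes were seen in 34.7% of Club-Tracer AT2 cells, 11.6% of BASC-Tracer AT2 cells and 0.430% of AT2-Tracer AT2 cells. None of the 6 was seen in 7.74%, 29.1% and 59.4%, and all 6 together in 1, 0 and 0 cells. The median cell showed 2, 1 and 0 of the genes. Within a library the genes were only weakly tied to each other from cell to cell, with Spearman's rho at most 0.18 in Club-Tracer AT2 cells (Cd24a and Ly6a, 349 cells) and 0.31 in BASC-Tracer AT2 cells (Cckar and Cd24a, 258 cells). These cells share a library and the counts are sparse, so the coefficients describe the tables only.

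**Figure D2:**
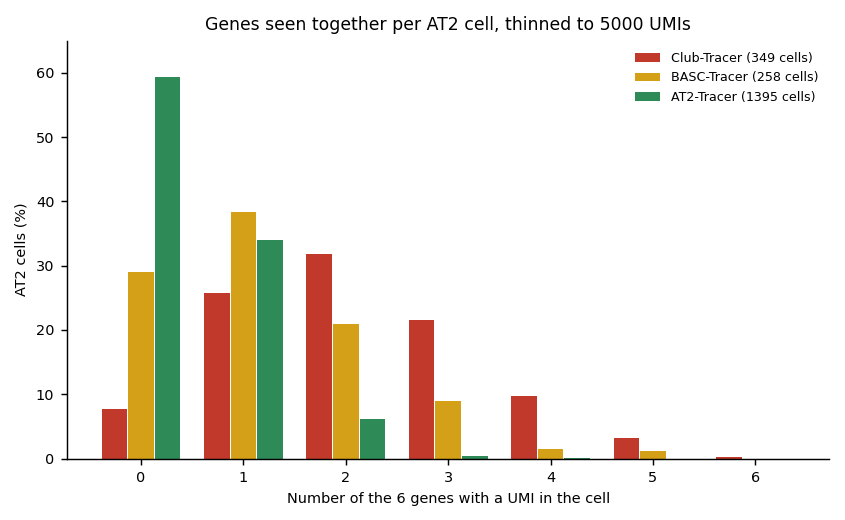
Percent of AT2 cells (vertical axis) in which 0 to 6 of the genes were seen (horizontal axis), by lineage label, each cell thinned to 5000 UMIs. AT2-Tracer cells pile up at 0 genes (59.4%), whereas 34.7% of Club-Tracer AT2 cells showed 3 or more.

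Scgb1a1 RNA, the airway product that club cells make in bulk, was used to divide the labelled AT2 cells further, in strata whose lowest limit lies in the range seen in immune cells, which had 18088 CPM of Scgb1a1 in the Club-Tracer and 6386 CPM in the BASC-Tracer library, above the lower limit of 1% of UMIs in the first and below it in the second. How far free RNA set the stratum of a cell was not tested. Scgb1a1 was under 1%, 1 to 5% and over 5% of UMIs in 176, 103 and 70 Club-Tracer AT2 cells and in 214, 35 and 9 BASC-Tracer AT2 cells. In the AT2-Tracer library, 1394 of the 1395 AT2 cells were under 1%, and the remaining cell held 1 Ly6a UMI and no UMI of the other members. Under 1% the members were still apart from the AT2-Tracer library, and so were the club cell markers. The 8 club cell markers summed to 9006 CPM in Club-Tracer, 5513 in BASC-Tracer and 2078 in AT2-Tracer AT2 cells of this stratum. Their part in the members' difference was not tested. Club-Tracer AT2 cells of this lowest stratum had 52.8 CPM of Cckar (239 UMIs), against 0.364 CPM in AT2-Tracer cells, a ratio of 145 (77.5 to 306). The ratios were 9.71 for Cd24a, 10.9 for Plpp3, 10.0 for Epdr1, 4.39 for Ly6a and 2.02 for Krtap17-1. Of the 5 members at 50 CPM or more there, 4 were 2-fold higher, where 1.80% of features were, and Krtap17-1 fell short with a log2 ratio of 0.94. For BASC-Tracer cells of this stratum Cckar was at 23.3 CPM (162 UMIs), a ratio of 63.9 (33.9 to 136), and 1 of the 3 members at 50 CPM or more was 2-fold higher, where 0.838% of features were. The genes were chosen with their UMIs in these strata known, so both counts are a description.

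Along the Scgb1a1 strata the genes fell, in CPM, into a rising and a level group. In Club-Tracer AT2 cells Cckar stood at 52.8, 80.1 and 150.2 CPM from the lowest to the highest stratum, with 239, 195 and 316 UMIs. Cd24a stood at 157, 223 and 343 CPM (712, 543 and 721 UMIs), and Plpp3 at 34.3, 54.6 and 88.9 CPM (155, 133 and 187 UMIs). Krtap17-1 stood at 88.6, 101 and 189.7 CPM (401, 247 and 399 UMIs). These 4 genes were more than 2-fold higher over 5% than under 1%, with ratios of 2.85 for Cckar (2.40 to 3.38), 2.18 for Cd24a, 2.60 for Plpp3 and 2.14 for Krtap17-1. Epdr1, at 74.2, 62.4 and 75.6 CPM, had a ratio of 1.02 (0.838 to 1.23), and Ly6a, at 705, 649 and 654 CPM, had a ratio of 0.927 (0.870 to 0.988). So 4 of 6 members were 2-fold higher over 5%, where 1.51% of 2647 features were and 2.83% were 2-fold lower. The median log2 ratio over all features tested was -0.32, so Epdr1 and Ly6a were level in CPM where the typical feature was lower. Between 1 to 5% and under 1%, 0 of 6 members were 2-fold higher, where 0.149% of features were. The members were chosen with their UMIs in these strata known, so counts over the strata, here and in the BASC-Tracer library, are a description.

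The same strata of the BASC-Tracer library held fewer cells, 9 of them over 5%. Cckar stood at 23.3, 81.5 and 232 CPM (162, 92 and 75 UMIs), Cd24a at 66.2, 133 and 344 CPM (461, 150 and 111 UMIs) and Plpp3 at 10.9, 29.2 and 155 CPM (76, 33 and 50 UMIs). All 3 genes climbed with Scgb1a1, as in the Club-Tracer library. Ly6a climbed here, at 267.5, 471 and 527 CPM, whereas it was level in the Club-Tracer library. Epdr1 stood at 47.1, 54.0 and 96.0 CPM, and Krtap17-1 at 80.3, 76.2 and 133 CPM. Between 1 to 5% and under 1%, Cckar alone among the 5 members at 50 CPM or more was 2-fold higher, with a ratio of 3.50 (2.68 to 4.55), where 0.580% of features were. Thinned cells with 3 or more of the 6 genes made up 24.4%, 28.2% and 67.1% of the 3 strata in the Club-Tracer library and 8.88%, 28.6% and 55.6% in the BASC-Tracer library. Over single cells the rank correlation with Scgb1a1 was 0.26 for Cckar in Club-Tracer and 0.28 in BASC-Tracer AT2 cells, and 0.01 and 0.09 for Epdr1.

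**Figure D3:**
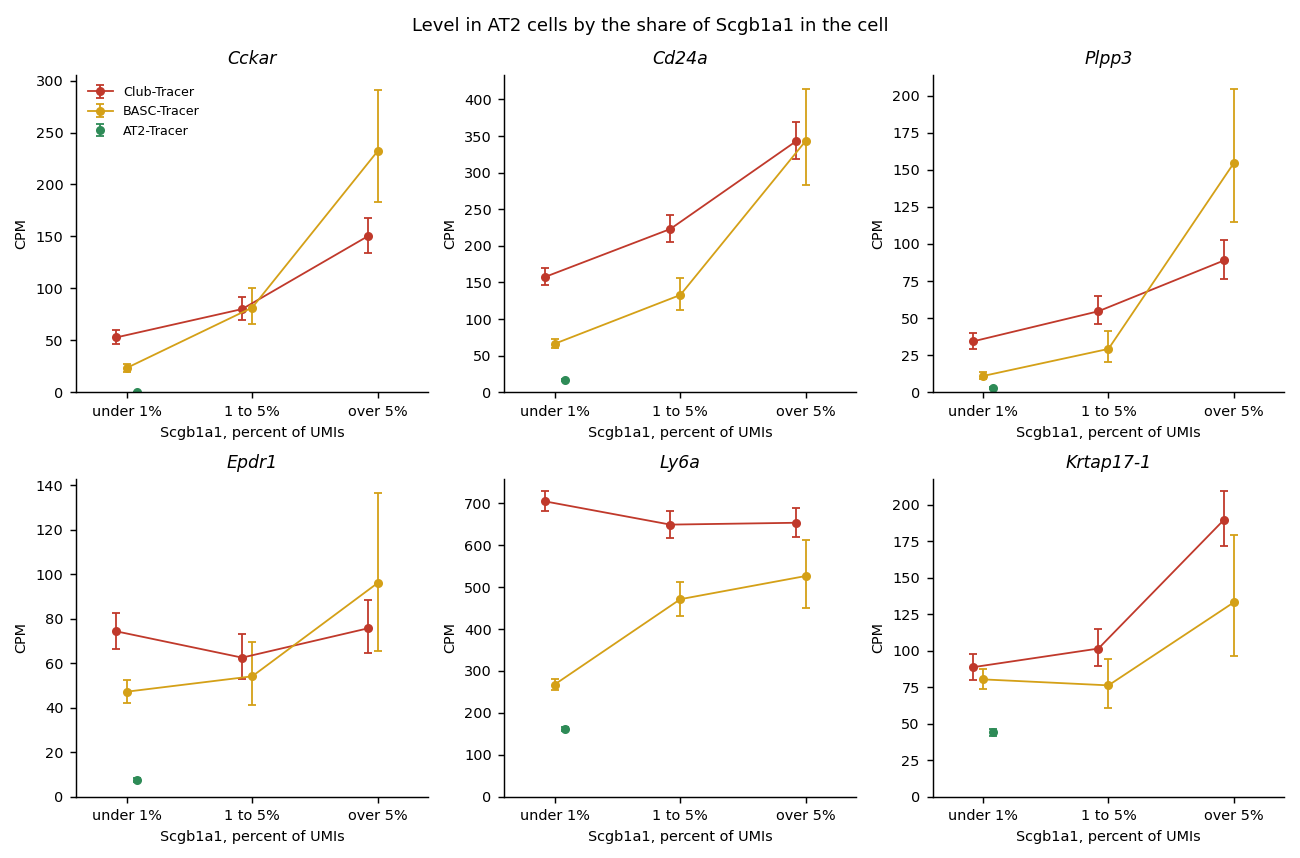
Level of each gene in AT2 cells (CPM, linear axis from 0) by the share of Scgb1a1 in the cell's UMIs (under 1%, 1 to 5%, over 5%), by lineage label; error bars are exact 95% Poisson intervals. Cckar, Cd24a, Plpp3 and Krtap17-1 climb in Club-Tracer cells, Epdr1 and Ly6a do not, and the AT2-Tracer cells, with a point only under 1%, lie below the other libraries for all 6 genes.

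Free Scgb1a1 RNA can enter any droplet. The median Club-Tracer AT2 cell under 1% held 79 Scgb1a1 UMIs, beside 105.5 in the 438 Club-Tracer barcodes under 1000 UMIs, a comparison added after the data were seen. The files were limited to called cells, so these barcodes are not empty droplets and need not sample free RNA. The members were also counted per 1000 Scgb1a1 UMIs. The strata and the club cells are defined by Scgb1a1, the denominator, so the order of AT2 strata and club cells on this scale follows in part from how the cells were chosen, and these ratios are a description. Cckar came to 13.4 per 1000 (11.8 to 15.3) in Club-Tracer AT2 cells under 1%, against 0.473 in club cells, 0.372 (0.101 to 0.953) in immune cells and 0.401 (0.248 to 0.613) in the barcodes under 1000 UMIs. For the other members the values in AT2 cells under 1% and in club cells were 40.0 against 0.972 for Cd24a, 8.72 against 0.342 for Plpp3, 18.9 against 0.107 for Epdr1, 179 against 1.10 for Ly6a and 22.55 against 0.474 for Krtap17-1. Of the club cell genes used for comparison, Scgb3a2 was at 10.8 per 1000 in the AT2 cells under 1%, against 31.2 in club cells, and Cyp2f2 at 88.9, against 20.2. Cyp2f2 at 0.2% or more of UMIs is part of the club cell gate, so its club cell value follows in part from the choice of cells. The part of free club cell RNA in the members' levels was not tested.

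BASC-Tracer AT2 cells under 1% gave 14.8 Cckar UMIs per 1000 Scgb1a1 UMIs, beside 13.4 in the Club-Tracer library, against 0.703 in BASC-Tracer club cells, 1.645 (0.875 to 2.81) in immune cells and 0.634 (0.3625 to 1.03) in barcodes under 1000 UMIs. The BASC-Tracer immune cells thus lay above the club cells of their library on this scale, with intervals that do not overlap. From the lowest to the highest stratum, Cckar was at 13.4, 3.72 and 1.01 per 1000 in Club-Tracer and at 14.8, 3.60 and 1.755 in BASC-Tracer AT2 cells, a fall in which the denominator rises by construction. Club cells captured in 1 droplet with an AT2 cell would also carry both kinds of RNA. Removing the barcodes with the highest doublet scores took out 10 of the 349 Club-Tracer AT2 cells, 3 of them over 5%, and the part of such pairs in the highest stratum was not tested.

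**Figure D4:**
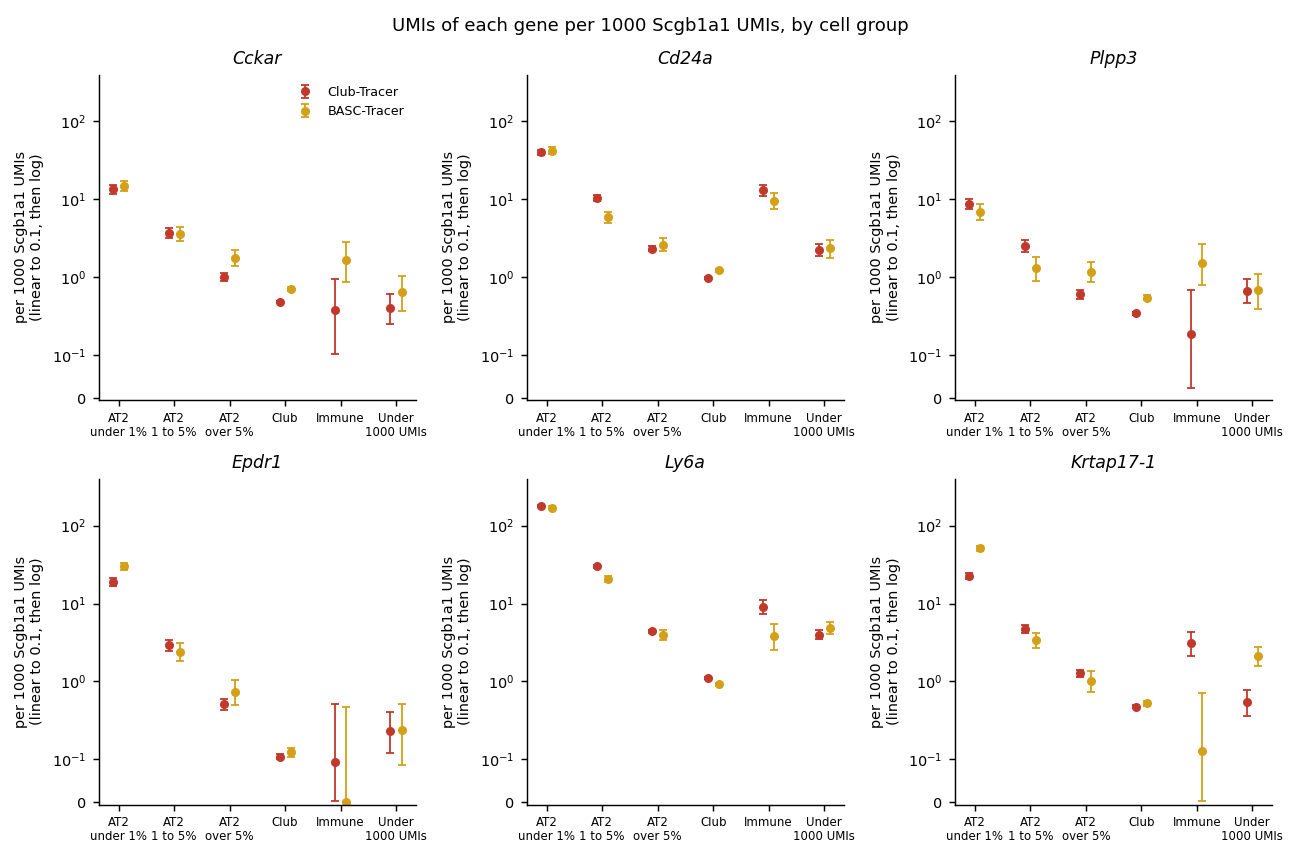
UMIs of each gene per 1000 Scgb1a1 UMIs (axis linear to 0.1, then logarithmic) in AT2 cells under 1%, at 1 to 5% and over 5% Scgb1a1, club cells, immune cells and barcodes under 1000 UMIs, for the Club-Tracer and BASC-Tracer libraries; error bars are exact 95% intervals. For Cckar the AT2 cells under 1% sit at 13.4 and 14.8, the club cells at 0.473 and 0.703 and the immune cells at 0.372 and 1.645; the AT2 strata and the club cells are defined by the denominator.

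Club cells themselves, with Scgb1a1 at 5% or more and Cyp2f2 at 0.2% or more of UMIs, carried all 6 genes. Cckar was at 178 CPM in Club-Tracer and 239 CPM in BASC-Tracer club cells, Cd24a at 365.5 and 415 CPM, Plpp3 at 129 and 185 CPM and Krtap17-1 at 178 CPM in both. Ly6a was at 414 and 310.4 CPM and Epdr1 at 40.4 and 41.5 CPM. Between club cells of the Club-Tracer and BASC-Tracer libraries, 0 of 5 members at 50 CPM or more were 2-fold apart, where 0.527% of features were. The AT2-Tracer library held 8 club cells, too few for a group, with 25 Cckar UMIs or 149 CPM (96.5 to 220). These 8 cells held 238 ZsGFP UMIs (1419 CPM) and 2 tdT UMIs (11.9 CPM), against 7278 and 0.728 CPM in the AT2 cells of their library.

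Set against the club cells of their own library, Club-Tracer AT2 cells had less of some members and more of others. The typical feature was itself higher in AT2 cells on this scale. The median log2 ratio of AT2 over club cells, over all features tested, was 0.53 in Club-Tracer and 0.54 in BASC-Tracer cells. Cckar was 0.465 times (0.429 to 0.503) and Plpp3 0.4075 times (0.369 to 0.450) the club cell level, the 2 of 6 members that were 2-fold lower, where 3.89% of features were. Epdr1 was 1.77 times (1.59 to 1.96) and Ly6a 1.64 times (1.585 to 1.69) the club cell level, and 0 members were 2-fold higher, where 15.5% of features were. Among BASC-Tracer cells 4 of 5 members were 2-fold lower in AT2 than in club cells, where 4.15% of features were, with Cckar at 0.164 times (0.144 to 0.185) and Plpp3 at 0.102 times (0.0856 to 0.121). Epdr1, at 1.20 times (1.01 to 1.44), was again not lower in AT2 cells.

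The difference between labels extended beyond AT2 cells. In transitional cells (124 in Club-Tracer, 54 in BASC-Tracer and 316 in AT2-Tracer) Cckar was at 65.4, 34.7 and 1.29 CPM, Cd24a at 539, 394 and 111 CPM and Ly6a at 993, 932 and 218 CPM. Plpp3 was at 79.8, 39.3 and 8.89 CPM, Epdr1 at 27.7, 18.5 and 3.07 CPM and Krtap17-1 at 483, 478.5 and 185 CPM. Of the members at 50 CPM or more, 5 of 5 were 2-fold higher in Club-Tracer than in AT2-Tracer transitional cells, where 4.15% of features were, and 3 of 3 in BASC-Tracer, where 2.51% were. Transitional cells are among the cells for which the genes were chosen, and Cckar and Plpp3 reached 50 CPM there only in the Club-Tracer group, so these counts are a description. The 8 club cell markers summed to 22289, 8921 and 374 CPM in the transitional cells, so club RNA moved with the label here too. Its part in the members' difference was not tested.

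AT1 cells (71 in Club-Tracer, 104 in BASC-Tracer and 513 in AT2-Tracer) gave the same order of libraries for every member. Cckar was at 101, 40.7 and 1.66 CPM, Plpp3 at 79.6, 45.6 and 7.80 CPM and Epdr1 at 45.5, 6.52 and 0.996 CPM. Ly6a was at 1152, 346.5 and 65.5 CPM, Cd24a at 368, 159 and 37.5 CPM and Krtap17-1 at 991, 561 and 151 CPM. The BASC-Tracer level of Ly6a can turn on very few cells, since its variance over the 104 thinned cells was 71.9 times its mean. In AT1 cells thinned to 5000 UMIs, a Ly6a UMI was found in 53.5% of Club-Tracer cells. The shares were 13.5% (7.559 to 21.55) in BASC-Tracer and 10.3% (7.835 to 13.3) in AT2-Tracer cells, with intervals that overlap. The members at 50 CPM or more were again all 2-fold higher, 5 of 5 between Club-Tracer and AT2-Tracer cells, where 4.45% of features were, and 3 of 3 between BASC-Tracer and AT2-Tracer cells, where 1.36% were. Cckar, Plpp3 and Cd24a were under 50 CPM in AT2-Tracer AT1 cells, so they could enter these counts only as higher. The counts are therefore a description. Ly6a was 17.6 times as high in Club-Tracer as in AT2-Tracer AT1 cells, beside 4.23 times in AT2 cells. The 8 club cell markers summed to 38596, 11445 and 503 CPM in the AT1 cells, and their part in the members' difference was not tested.

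Within each library the members divided by the alveolar state in which they were highest. Epdr1 was higher in AT2 than in transitional cells in all 3 libraries, by 2.58 times (2.03 to 3.31) in Club-Tracer, 2.70 times (1.88 to 4.00) in BASC-Tracer and 2.405 times (1.50 to 4.08) in AT2-Tracer cells. It was also higher in AT2 than in AT1 cells in all 3, by 1.57, 7.66 and 7.42 times. Krtap17-1 ran the other way in all 3 libraries, at 0.239, 0.171 and 0.237 times the transitional level and 0.1165, 0.146 and 0.290 times the AT1 level. Cd24a was likewise lower in AT2 than in transitional cells, at 0.4045, 0.218 and 0.146 times. In the Club-Tracer library Epdr1 was the 1 of 6 members that was 2-fold higher in AT2 than in transitional cells, where 5.39% of features were, and Cd24a and Krtap17-1 were the 2 that were lower, where 18.2% were. At a background of that size these counts say little about the members as a group. The direction of Epdr1, Krtap17-1 and Cd24a was the same in 3 of 3 libraries. For AT2 over transitional cells the median log2 ratio over all features tested was -0.48 in Club-Tracer, -0.43 in BASC-Tracer and -0.39 in AT2-Tracer cells. A lower level in AT2 cells, as for Krtap17-1 and Cd24a, was thus the common direction. Both classes are among the cells for which the genes were chosen, so these directions are a description.

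**Figure D5:**
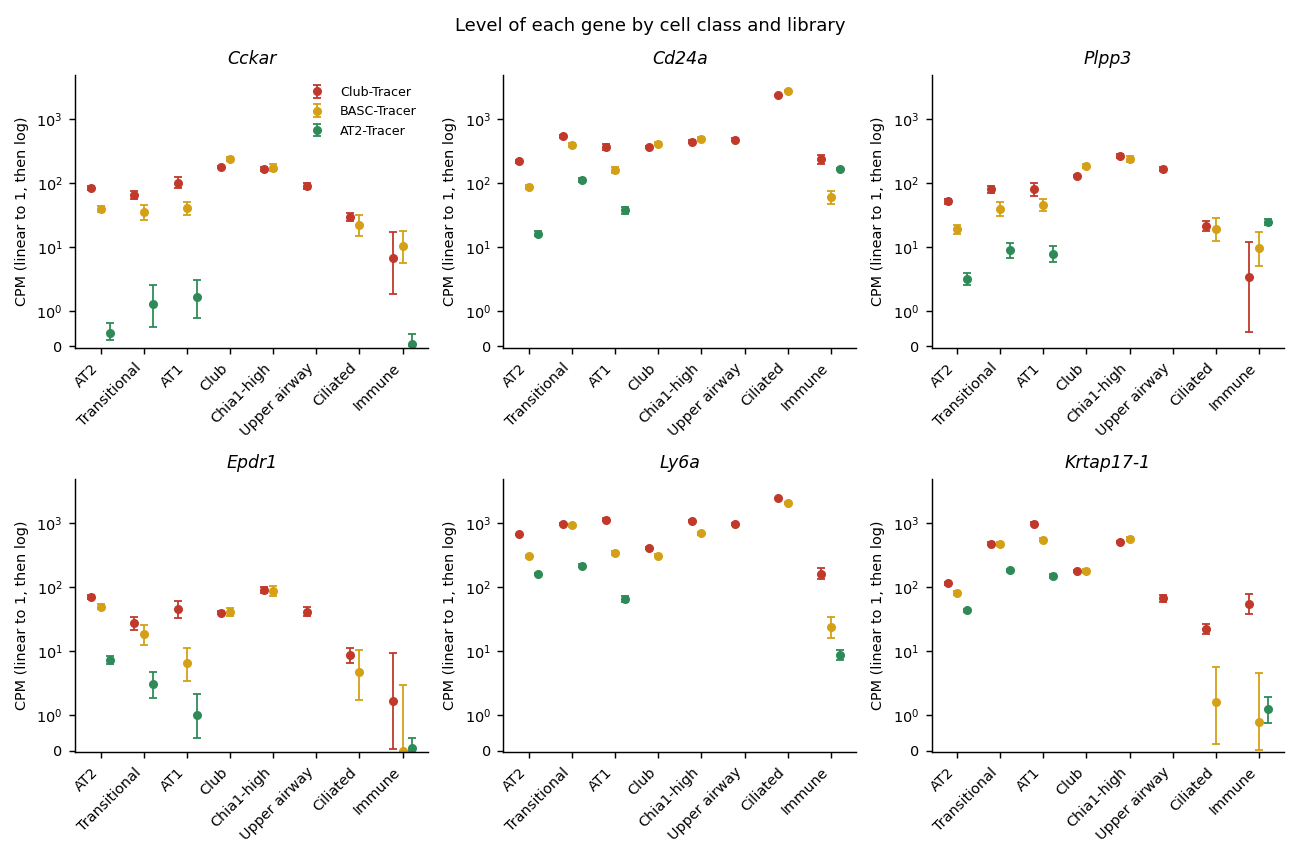
Level of each gene (CPM, axis linear to 1, then logarithmic) by cell class and lineage label, in class and library groups of at least 30 cells; error bars are exact 95% Poisson intervals. In AT2, transitional and AT1 cells the Club-Tracer points lie highest and the AT2-Tracer points lowest for all 6 genes, and immune cells reach at most 10.5 CPM of Cckar, in the BASC-Tracer library.

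Other airway classes each held a different mix of the genes. Cells high in Chia1, a chitinase gene, held 167 CPM of Cckar in Club-Tracer and 175 CPM in BASC-Tracer cells, with Plpp3 at 266 and 240 CPM, Ly6a at 1106 and 702 CPM and Krtap17-1 at 512 and 568 CPM. Ciliated cells were the highest class for Cd24a, at 2395 CPM in Club-Tracer and 2721 CPM in BASC-Tracer cells, and for Ly6a, at 2504 and 2107 CPM, yet held 29.6 and 22.2 CPM of Cckar. The 69 basal cells of the Club-Tracer library held 403 CPM of Cd24a and 1031 CPM of Ly6a but 1 Cckar UMI, or 0.971 CPM. Among the airway classes Cckar was highest in club and Chia1-high cells, whereas Cd24a and Ly6a were well above 100 CPM in all of them.

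Immune cells (59 in Club-Tracer, 106 in BASC-Tracer and 1618 in AT2-Tracer) held 4, 13 and 1 UMIs of Cckar, or 6.73 CPM (1.83 to 17.2), 10.5 CPM (5.59 to 18.0) and 0.0628 CPM (0.00159 to 0.350), and 1, 0 and 1 UMIs of Epdr1. Cckar was thus lowest in AT2-Tracer immune cells, as it was in AT2 cells, and the BASC-Tracer immune level is to be read beside the 23.3 CPM of the BASC-Tracer AT2 cells under 1% Scgb1a1. How much of either level was free RNA was not tested. Cd24a, which immune cells are known to make, was at 235.6, 60.6 and 168 CPM in them. In the AT2-Tracer library that is above the 16.2 CPM of the AT2 cells, of which 49 of 1395 held a UMI of the immune gene Ptprc. Of the 33 Krtap17-1 UMIs in Club-Tracer immune cells, 32 came from 1 cell. Ly6a was at 165, 24.2 and 8.73 CPM.

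AT2 cells were also split by Lyz1, a lysozyme gene. These are parts of the same AT2 cells whose UMIs chose the members, so the counts of members below are a description. Lyz1 was at 4355 CPM in Club-Tracer AT2 cells, against 480 CPM in AT2-Tracer AT2 cells. Among cells with Lyz1 at 0.1% or more of UMIs (55 Club-Tracer and 91 AT2-Tracer cells), Cckar had 138 UMIs, against 0 in AT2-Tracer cells. A count of 0 was given a limit of 3 counts, here 1.64 CPM, which is not an exact interval. The 2-fold rule was met upward by 6 of 6 members in these Club-Tracer cells and by 2.37% of features. Krtap17-1 had 152 UMIs in the Club-Tracer cells, against 7 in the AT2-Tracer cells, a ratio of 24.65 (11.7 to 62.35), beside 2.63 over all AT2 cells. Most Krtap17-1 UMIs sat in few cells, so this interval, which treats UMIs as independent, is too narrow. In cells under 0.1% all 5 members at 50 CPM or more were higher, where 1.96% of features were. Within a library, Krtap17-1 was lower in AT2-Tracer cells with Lyz1 at 0.1% or more, at 3.82 CPM, against 46.7 CPM under 0.1%. The 17 such BASC-Tracer cells held 0 Krtap17-1 UMIs, where the limit of 3 counts is 4.70 CPM, against 88.5 CPM in the other 241 cells. In groups this small the level of Krtap17-1 can turn on a few cells, and its difference by Lyz1 was not tested. In the Club-Tracer library Krtap17-1 was at 94.2 CPM with Lyz1 at 0.1% or more, against 120 CPM under 0.1%, and 0 of 6 members were 2-fold apart, where 0.274% of features were.

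Club-Tracer AT2 cells were also divided by ZsGreen RNA. The 177 cells with 1 to 4 ZsGreen UMIs had 85.5 CPM of Cckar, 55.0 of Plpp3, 663 of Ly6a and 107.5 of Krtap17-1, against 80.6, 50.5, 687 and 119 CPM in the 166 cells with none, with intervals that overlap. Epdr1 was higher in the cells with ZsGreen UMIs, at 81.3 CPM (73.5 to 89.6), against 60.4 CPM (53.0 to 68.6), and Cd24a lower, at 195 CPM (183 to 208), against 241 CPM (226 to 257). The 6 cells with 5 or more ZsGreen UMIs had 11 Cckar UMIs, or 56.5 CPM (28.2 to 101), and are in neither group. Cells near the Sftpc limit had high levels on both of its sides. With Sftpc at 4 to 5% of UMIs, just inside, 37 Club-Tracer cells held 135 CPM of Cckar and 298.5 CPM of Cd24a, against 124 and 512 CPM in 31 cells just outside at 3 to 4%. In the AT2-Tracer library the 110 cells just inside and the 104 just outside held 0 Cckar UMIs, and 35.4 and 32.6 CPM of Cd24a.

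Genes most like each member were sought by Pearson's r of log2(CPM + 5) over 23 class and library groups of at least 30 cells, among 6336 genes. For Cckar they were Cldn10, a tight junction gene (0.960), Hp, the haptoglobin gene (0.911), and Aldh1a7, an aldehyde dehydrogenase gene (0.903). Plpp3 was most like Cyp1b1 (0.918), Gabrp (0.909) and Mgat3 (0.903), Epdr1 like Aox3 (0.938), Rbp4 (0.926) and Idh2 (0.888), and Ly6a like Gpx2 (0.932), Lrig1 (0.919) and Hmgn3 (0.913). Cd24a was most like Enah (0.918), Aldh1a1 (0.888) and Arfgap3 (0.879), and Krtap17-1 like Pdlim2 (0.902), Homer2 (0.895) and Fam110a (0.874). Among the members, Cckar, Plpp3 and Epdr1 were alike at 0.819 to 0.827, while Cd24a and Krtap17-1 stood at 0.003. The groups share libraries, so these coefficients carry no test.

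Of the 18 relatives and partners of the members at 50 CPM or more, each counted once over the 6 lists, 3 were 2-fold apart between Club-Tracer and AT2-Tracer AT2 cells, where 5.70% of all features were 2-fold apart either way: Sgpp2 and Cd74 were lower and Ifitm3 higher. In the cholecystokinin system, 0 of the 2 other genes at 50 CPM or more were 2-fold apart between Club-Tracer and AT2-Tracer AT2 cells: the G protein genes Gna11 and Gnaq had 51.5 and 49.8 CPM in Club-Tracer cells, against 66.1 and 56.1 CPM in AT2-Tracer cells. Named for their role and not for their level, the ligand gene Cck had 0 UMIs in Club-Tracer cells, against 38 in AT2-Tracer cells, and the B receptor gene Cckbr had 0 in both. In lipid phosphate signalling, the related phosphatase gene Plpp2 was at 53.8 CPM in Club-Tracer cells, against 64.2 CPM, and Sgpp2, a sphingosine phosphate phosphatase gene, was lower at 11.5 CPM, against 107 CPM in AT2-Tracer cells (log2 ratio -2.77). Sgpp2 was also lower in BASC-Tracer AT2 cells, at 47.7 CPM (log2 ratio -1.09).

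Around Ly6a in the Ly6 family, 0 of the 3 other genes at 50 CPM or more reached 2-fold, with log2 ratios of Club-Tracer over AT2-Tracer of -0.27 for Ly6c1, 0.39 for Ly6c2 and 0.49 for Ly6e. Ly6i, the neighbour of Ly6a, lay under the 50 CPM limit and is named after its values were seen: it had 308 UMIs or 34.0 CPM in Club-Tracer cells, against 164 UMIs or 5.97 CPM in AT2-Tracer cells, a ratio of 5.69 (4.69 to 6.92). Of the 3 interferon-induced genes at 50 CPM or more, which include Ly6e, Ifitm3 was 2-fold higher (94.9 CPM in Club-Tracer cells, against 19.1 CPM, log2 ratio 2.05), and Ifitm2 was not (0.50). Of the 4 other sort antigens, 0 were higher and the MHC class II chain gene Cd74 was lower (log2 ratio -1.20), while the epithelial adhesion gene Epcam was at 220.8 CPM in Club-Tracer cells and 231 CPM in AT2-Tracer cells. Among keratins, 0 of 5 were 2-fold apart, with log2 ratios from -0.73 for Krt7 to 0.01 for Krt19.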

How the data were processed

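The 3 libraries were made with 5′ version 2 droplet chemistry from sorted lung cells, per the labels' protocols. The deposited files held counts, whole UMI counts per gene and barcode that were not normalized, already limited to called cells, per the file headers. Cell Ranger 6.1.1 and the genome build mm10, which is GRCm38, are named by the submitters' processing notes. They name no annotation release, which is thus not given in the sources used here. No column of per-sample values from elsewhere was met (0).

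The member genes, gene lists, gates and alternatives were chosen with earlier results of these data known. Each barcode took the first class it met, in the order given here. AT2 cells had Sftpc at 4% or more. Immune cells, with a Ptprc UMI, and endothelial cells had summed markers above an epithelial sum. Ciliated cells were taken by summed markers and basal cells by Krt5 at 0.05% or more. Transitional cells had Krt8 at 0.2% or more and Cldn4 at 0.02% or more, and AT1 cells were taken by summed markers. Both had Sftpc under 1% and Scgb1a1 under 5%. Then came Chia1-high cells by Chia1 and upper airway cells by Scgb3a1, both with Sftpc under 1%. Club cells had Scgb1a1 at 5% or more, Cyp2f2 at 0.2% or more and Sftpc under 1%. No member entered a gate. Epithelial classes needed 5000 UMIs and immune cells 1000, all with at most 15% mitochondrial UMIs. Summed UMIs of a class were divided by all its UMIs (CPM). The UMI counts are not scaled by gene length, so levels are compared between groups of cells and not between genes. Intervals are exact Poisson intervals for levels, exact conditional intervals for ratios and Clopper-Pearson intervals for shares, at 95%. A count of 0 was given the limit of 3 counts. The genes named beside the members were the 3 with the highest correlation to each, and from each pathway list up to 4 genes at 50 CPM or more, 2 from each end of the log2 ratio. Thinning drew UMIs without replacement with seed 0. Doublets were kept, because the automatic threshold of Scrublet marked 0.0300%, 0.139% and 1.68% of scored Club-Tracer, BASC-Tracer and AT2-Tracer barcodes. Removal by rank at 0.8% per 1000 barcodes was an alternative. Python 3.11.15 with numpy 2.4.6, scipy 1.17.1, pandas 2.3.3, scanpy 1.11.5 and matplotlib 3.10.9 was used, and the ratio code was tested on simulated data. Gene positions came from GENCODE M21 by gene ID, which matched 32235 of the 32287 features.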

Additional observations from a re-analysis of the deposited data

Results flagged for a closer look

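Plpp3 was flagged because its label difference in immune cells ran against that in alveolar cells. Club-Tracer immune cells held 2 UMIs or 3.37 CPM, against 395 UMIs or 24.8 CPM in AT2-Tracer immune cells, a ratio of 0.136. The ratio was 16.7 in AT2, 8.97 in transitional and 10.2 in AT1 cells. The difference between classes was not tested, since each label was 1 library, and the immune groups held 59 and 1618 cells.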

How the results depend on the processing

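Each comparison of AT2 cells had 16 alternatives, and no called direction of a member was reversed. Where a value moved, the cause was not tested unless the setting itself sets it, as the pseudocount and the CPM limits do. The median log2 ratio of the 6 members, 2.72 for Club-Tracer over AT2-Tracer, became 2.38 with Sftpc at 8% or more, 2.47 with Scgb1a1 under 1%, 3.06 with Lyz1 at 0.1% or more, 3.39 with 1 CPM added and 1.85 with 20 CPM added. For BASC-Tracer over AT2-Tracer, 1.83 became 1.36 with Scgb1a1 under 1%, 2.30 with 1 CPM and 1.10 with 20 CPM added. For Club-Tracer over BASC-Tracer, 1.07 became 0.77 with Lyz1 at 0.1% or more and 0.85 with 20 CPM added. The members 2-fold higher in BASC-Tracer over AT2-Tracer, 1 as reported, became 2 with a higher UMI minimum, with mitochondrial UMIs at most 10%, without the highest Scrublet scores, without Ptprc and with CPM taken without Sftpc, Scgb1a1, reporters and mitochondrial genes. They became 3 with Sftpc at 8% or more and with a limit of 20 CPM, 4 with Lyz1 at 0.1% or more, and 0 with a limit of 100 CPM. The features 2-fold higher also rose at 20 CPM and with Lyz1 at 0.1% or more, and fell at 100 CPM, as counted in the next paragraph. These counts of members are therefore a description. In Club-Tracer over AT2-Tracer, 3 of 6 were left at a limit of 100 CPM, and in Club-Tracer over BASC-Tracer 3 became 5 with Sftpc at 2% or more.

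The features 2-fold higher and lower in Club-Tracer over AT2-Tracer became 101 and 186 at a limit of 20 CPM and 33 and 58 at 100 CPM. In BASC-Tracer over AT2-Tracer they became 54 and 41 at 20 CPM, 19 and 12 at 100 CPM and 58 and 102 with Lyz1 at 0.1% or more, and 13 were lower with 20 CPM added. In Club-Tracer over BASC-Tracer, those higher became 18 with Sftpc at 2%, 6 with Sftpc at 8%, 16 by the median ratio and 6 at 100 CPM. There they became 17 higher and 39 lower at 20 CPM and 29 and 41 with Lyz1 at 0.1% or more. Scaling by the median ratio gave 16 higher and 16 lower there, where the total gave 10 and 20. Krtap17-1 lay between 0.94 and 3.49 on the log2 scale for Club-Tracer over AT2-Tracer. For BASC-Tracer over AT2-Tracer it lay between -0.82 and 1.49, negative in the 17 BASC-Tracer cells with Lyz1 at 0.1% or more. Cckar lay between 2.33 and 5.94 for Club-Tracer over AT2-Tracer. With Scgb1a1 limits of 0.5% and 2%, or 2% and 10%, 18 of 36 levels moved in each library, and Cckar in Club-Tracer AT2 cells stood at 131 CPM in the highest and 49.0 in the lowest stratum, or 159 and 56.97. Unthinned, the share of AT2 cells with a Cckar UMI was 59.6% in Club-Tracer and 0.645% in AT2-Tracer cells.

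No paired analysis was possible because each label had 1 library and the groups share fewer than 2 replicate numbers. Differences between libraries and between labels cannot be told apart, intervals cover counting error only, and Cckar at 10 UMIs in AT2-Tracer AT2 cells leaves its ratio known to within several-fold.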
